A study of Mus musculus with 40 samples.

Results

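Regulatory T cells that had been induced in culture (iTregs) were compared after a second stimulation through the T cell receptor and at rest, in 6 of the 24 RNA-seq libraries of the series, which holds 40 samples over all its assays. The members were chosen by their sample names alone: 3 libraries of restimulated iTregs (Restim) were set against 3 libraries of resting iTregs (Rest), with the replicate number as a block. Per the methods of the study, naive CD4+ T cells that did not yet express the Foxp3 reporter were taken from 6-week-old Foxp3 reporter mice on a C57BL/6 background. They were cultured for 4 days on plate-bound anti-CD3 (0.5 µg/ml) and anti-CD28 (1 µg/ml) with 2 ng/ml TGF-β and 200 U/ml IL-2, sorted for the Foxp3 reporter and rested for 1 day in IL-2. Both groups shared these steps and carried the reporter allele. Restim cells then met plate-bound anti-CD3 and anti-CD28 again. How long they did so before the RNA was taken is not given in the sources used here. The labels do not say whether the 3 replicates of a group came from separate mice or cultures. The p-values therefore measure the spread between libraries, which may be technical. For Restim against Rest, that spread was estimated over all 12 iTreg libraries of the series. Per the labels and the study, these include 3 libraries restimulated with an ORAI inhibitor and 3 with cyclosporin A. The study set both groups beside each other in asking how calcium and NFAT signals bear on the stability of iTregs.

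iTregs are made from ordinary CD4+ T cells by T cell receptor signals in the presence of TGF-β, which switches on Foxp3, the transcription factor that defines regulatory T cells and their suppressive program. Stimulation of the receptor sends signals through calcium and calcineurin, MAP kinases and NF-κB to NFAT, AP-1 and NF-κB transcription factors, which turn on cytokines, their receptors and growth programs, while factors of quiescence such as KLF2 are turned off. A helper T cell that receives such signals can take up the interferon-γ (Th1), IL-4 (Th2), IL-9 (Th9), IL-17 (Th17) or IL-21 (Tfh) programs, each set by its own cytokine receptors, STAT proteins and lineage factors. Signals of interferons run through STAT proteins to short promoter elements named ISRE and GAS.

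The table held reads per gene divided by one size factor per library, here called normalized counts. The 6 libraries had between 9808711 and 14103874 reads on genes, and 3 reads, used as the limit of detection, corresponded to 2.28 to 3.36 normalized counts. These limits cover counting error only. Rest replicate 3 stood furthest from its group: pairs of Rest libraries that included it varied by 13.6 and 16.6 times the counting variance, against 3.61 to 6.85 times in the other 4 pairs of libraries of one group. The 11 αβ CD4+ T cell markers were all tested and summed to between 53862 and 59538 normalized counts in Rest and between 49834 and 52228 in Restim. Of the markers of other cells, 2 of 10 for B cells and 5 of 15 for myeloid cells had 0 reads in all 6 libraries. So did 4 of 9 for NK and CD8 T cells and 3 of 9 for erythroid cells and platelets. Among these were *Ms4a1* and *Pax5* of B cells, *S100a8* and *Mpo* of myeloid cells and *Ncr1* of NK cells. The other listed markers had reads in at least 1 library. The B cell list summed to 59.0 to 72.6 in Rest and 122 to 134 in Restim, which followed *Ebf1* (12.6, 22.2 and 33.4 against 93.7, 97.5 and 89.9), and the erythroid list to 28.1 to 33.3 in Rest and 7.84 to 11.8 in Restim. The myeloid list summed to 20.0 to 27.3 in Rest and 21.8 to 31.2 in Restim, and the list of NK and CD8 T cells to 143 to 166 and 121 to 145. The highest gene of the latter was *Cd8b1*, with 94.9, 104 and 112 in Rest and 110, 93.0 and 93.5 in Restim. The part of other cells in the results below was not tested.

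Restimulated iTregs had higher levels of many receptors and cytokines of helper T cells, of NR4A factors and of guanylate-binding proteins, and lower levels of *Foxp3* and of part of the Treg, quiescence, amino acid stress and cholesterol genes. Of 11105 genes tested, 1500 were called, which is 13.5% (limma on log2 normalized counts plus 1, Benjamini-Hochberg adjusted p below 0.05 and a log2 fold change beyond 0.5). They split into 764 higher (6.88%) and 736 lower (6.63%). These shares over all genes tested are the ones to set beside each list count below. The median log2 fold change was 0.84 among genes called higher and -0.73 among those called lower, against -0.013 over all genes tested, so that most changes were smaller than 2-fold: 299 genes exceeded a log2 fold change of 1 and 190 fell below -1. All 3 Restim libraries lay on one side of all 3 Rest libraries for 1423 of the 1500 called genes, against 40.8% of all genes tested. The calls were made from these same libraries, so that this separation largely follows from them and adds no support. In bulk RNA, a lower level in every cell and fewer cells that express a gene cannot be told apart.

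**Figure D1:**
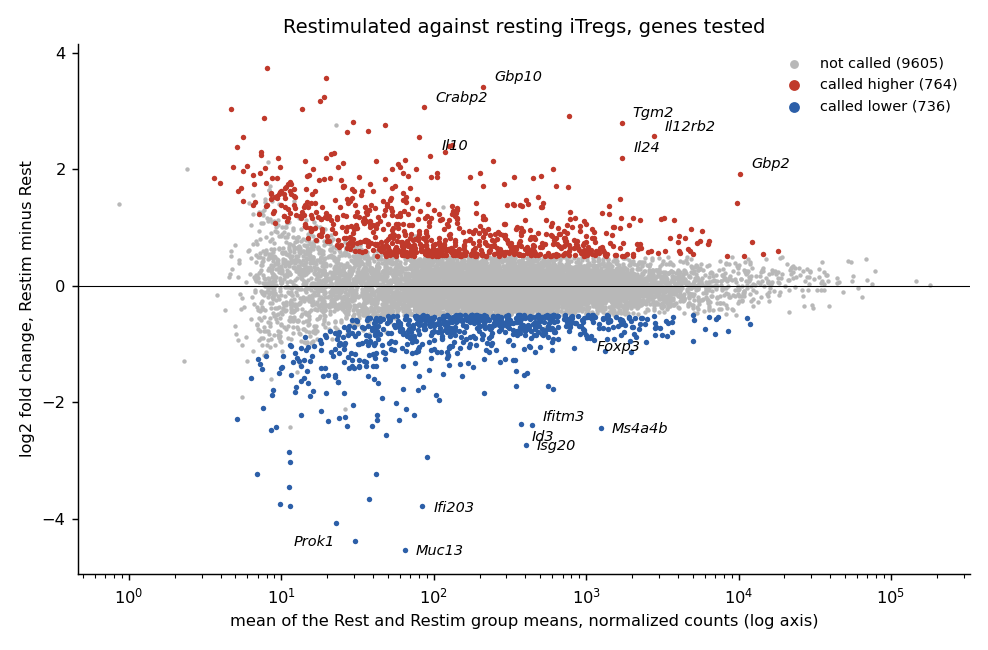
Log2 fold change of restimulated against resting iTregs (3 libraries each) by mean level for all 11105 genes tested, with 764 genes called higher in red, 736 called lower in blue and the rest in grey. The falls of *Muc13* (-4.54) and *Prok1* (-4.39) and the rise of *Gbp10* (3.41) lie at the edges, while *Foxp3* sits at -0.85.

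The 15 largest rises among well-expressed genes ran from *Gbp10* to *Alpk2*. *Tgm2* (chr2:158116402-158146436 in GRCm38, as all positions here), which encodes the protein cross-linking enzyme transglutaminase 2, had 395, 462 and 439 normalized counts in Rest and 2815, 2923 and 3269.6 in Restim, a 6.95-fold rise (log2 2.79 ± 0.064 SE, adjusted p = 4.64e-15). *Crabp2* (chr3:87948666-87953376), the carrier that brings retinoic acid to its nuclear receptors, had 21.1, 20.2 and 12.9 and 144, 149 and 172 and rose 8.58-fold (adjusted p = 1.32e-08). *Tg* (chr15:66670753-66850721), known as the thyroglobulin gene of the thyroid, had 176, 175 and 192 and 1474, 1325 and 1288 and rose 7.53-fold (adjusted p = 6.70e-14). In all 3 genes the lowest Restim library was more than 6 times the highest Rest library. Lower in level but of like size were the rises of *Ramp3*, a partner of the calcitonin-like receptor (8.43, 7.06 and 4.55 against 43.3, 57.2 and 56.3) and of *Gem*, a small GTPase that restrains voltage-gated calcium channels (41.1, 37.3 and 44.8 against 213, 201 and 259). *Il10*, *Il12rb2* and *Il24*, described below, were also among the 15, with *Ly6g*, *Bcl2l14*, *Ctla2b* and *Cysltr2*. *Gbp10*, *Il12rb2*, *Ctla2b* and *Tgm2* share 46.3%, 40.0%, 68.7% and 21.8% of their exon bases with another annotated gene, so that reads of the partner could be counted with them in these libraries, whose protocol does not mark the strand.

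Among the 15 largest falls, *Muc13* (chr16:33794037-33819934), a membrane mucin, had 103, 118 and 155 normalized counts in Rest and 4.03, 5.60 and 3.63 in Restim, 28.4-fold lower (log2 -4.54 ± 0.29 SE, adjusted p = 3.29e-09). *Prok1* (chr3:107232797-107239707), a secreted prokineticin, went from 61.1, 52.5 and 64.5 to 2.01, 1.12 and 2.72, at or below the limit of 3 reads in each Restim library (adjusted p = 2.89e-07). *Eya2*, a transcriptional coactivator with phosphatase activity, fell 11.9-fold (56.9, 69.6 and 80.4 against 1.01, 10.1 and 6.36), and *Hsd11b1*, which regenerates active glucocorticoid, fell 10.3-fold (64.3, 58.5 and 105 against 4.03, 8.97 and 9.08). The Rest and Restim libraries of these 4 genes did not overlap, which the ranking required. *Ifitm3*, an antiviral membrane protein, varied little within the groups: its Rest libraries held 739, 746 and 731 and its Restim libraries 141, 139 and 141, 5.26-fold lower. *Hist1h2bq*, a histone gene whose transcripts largely lack a poly(A) tail, was also among the 15, but with 51.4, 49.3 and 0.908 in Restim its call was lost without Restim replicate 3 and in 5 other refits.

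Treg genes were divided. Of the 30 tested genes of Treg identity and suppression, 8 were called lower and 3 higher, a share of 26.7% lower against 6.63% of all genes tested, with a list median of -0.16. The study had named *Foxp3*, *Sema4a*, *Nlrp6* and *Il10rb* as lowered by restimulation from its RNA-seq of these cells. They are among the 8, so that this share is no independent support. *Foxp3* (chrX:7573644-7595245) had 1178, 1338 and 1324 normalized counts in Rest and 705, 695 and 731 in Restim. The Restim libraries differed by less than 40 normalized counts among themselves and all lay below the lowest Rest library, 1.80-fold lower (log2 -0.85 ± 0.076 SE, adjusted p = 2.16e-07). *Lrrc32*, which holds latent TGF-β on the Treg surface, went from 1381, 1718 and 1316 to 798, 824 and 676 (adjusted p = 2.10e-08). *Nrp1*, a semaphorin receptor found on Tregs, fell from 278, 328 and 354 to 146, 139 and 144 (adjusted p = 5.38e-07), and *Sema4a*, its ligand in this setting, from 749, 719 and 914 to 409.9, 368 and 429 (adjusted p = 2.74e-08). The 3 Restim libraries of *Nrp1* lay within 7 normalized counts of each other, and neither gene had overlapping libraries. *Pdlim4*, *Nlrp6* and the orphan receptor gene *Gpr83* also fell (log2 -1.78, -1.82 and -0.53), as did *Il10rb*, the shared chain of the IL-10 receptor (log2 -0.51), whose value lies close to the fold threshold and whose call was lost in 4 of 16 refits. *Foxp3* shares 31.5% of its exon bases with another annotated gene.

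Against these falls, *Il10*, the suppressive cytokine, rose from 34.8, 28.2 and 34.9 to 186, 139 and 148 normalized counts, 4.83-fold (log2 2.23 ± 0.16 SE, adjusted p = 1.30e-08). *Tigit*, an inhibitory receptor, rose from 40.1, 49.4 and 62.2 to 129.9, 141 and 128 (adjusted p = 4.24e-06), and *Cd83* from 28.5, 23.2 and 28.8 to 83.6, 56.0 and 75.4 (adjusted p = 8.86e-06). No Restim library overlapped a Rest library in these 3 genes. Other genes of the Treg program were not called: *Ctla4*, which strips costimulatory ligands from antigen-presenting cells, had 1913, 1979 and 2539 in Rest and 2316, 2097 and 2129.8 in Restim (adjusted p = 0.781), and *Il2ra*, the high-affinity chain of the IL-2 receptor, had a log2 fold change of -0.26 (adjusted p = 0.00422), short of the fold threshold. The Ikaros family members *Ikzf2* and *Ikzf4* had log2 fold changes of -0.31 and 0.39, with adjusted p = 0.109 and 1.86e-04. In all, 19 of the 30 tested Treg genes were not called.

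**Figure D2:**
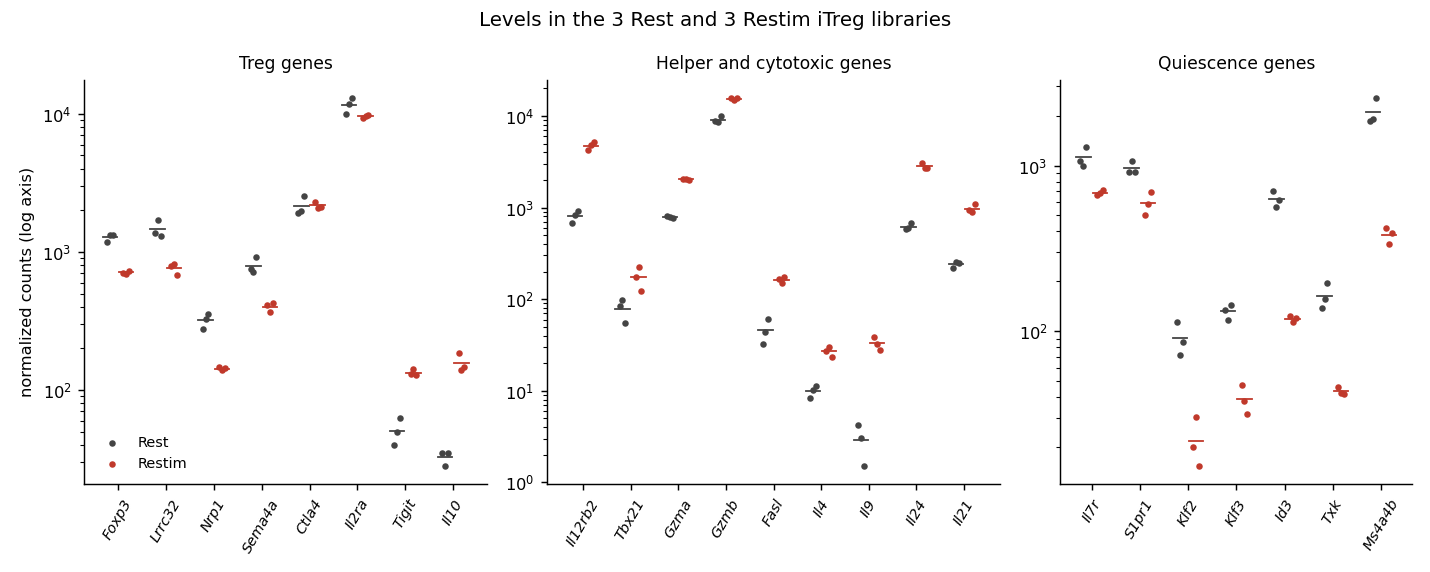
Normalized counts (log axis) in each of the 3 Rest (grey) and 3 Restim (red) iTreg libraries, with a line at each group mean, for Treg genes, helper and cytotoxic genes, and quiescence genes. *Foxp3*, *Lrrc32*, *Nrp1* and *Sema4a* lie lower and *Tigit* and *Il10* higher after restimulation, while the libraries of *Ctla4* overlap. The helper genes drawn lie higher and the quiescence genes drawn lie lower, without overlap.

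Genes of the TGF-β pathway moved in both directions, with 5 of 19 tested genes (26.3%) higher, 3 (15.8%) lower and a median of -0.0053. The shares over all genes tested were 6.88% and 6.63%. Both receptor chains fell: *Tgfbr1*, the signaling chain, from 491, 529 and 579.7 to 300.1, 359 and 292 (log2 -0.75, adjusted p = 9.44e-06) and *Tgfbr2*, the ligand-binding chain, from 368, 353 and 417 to 235, 254 and 265 (log2 -0.59, adjusted p = 1.73e-05). The activin receptor gene *Acvr1b* fell by 0.55 on the log2 scale, a call lost without Rest replicate 3 or Restim replicate 3. The ligand *Tgfb3* rose from 12.6, 17.2 and 15.2 to 75.5, 62.8 and 68.1 (4.59-fold, adjusted p = 4.12e-07), and so did *Tgfbr3*, the co-receptor betaglycan (log2 0.76). Feedback inhibitors of the pathway rose, namely *Pmepa1* (log2 1.00), *Skil* (log2 0.91) and *Ldlrad4* (log2 0.82), the last with 52.1% of its exon bases shared. *Smad3* and *Smad7*, a transducer and an inhibitor of the signal, were not called (log2 -0.38, adjusted p = 0.0174 and 0.15, adjusted p = 0.4).

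Genes of the Th1 and cytotoxic programs were raised most often among the helper lists. Of 26 tested, 15 (57.7%) were called higher and 5 (19.2%) lower, against 6.88% and 6.63% of all genes tested. The median log2 fold change of the list was 0.73. The 5 falls became 2 without Rest replicate 2 and 3 without Restim replicate 3. *Il12rb2* (chr6:67291318-67376188), the chain that makes a T cell responsive to IL-12, had 683, 823 and 911 normalized counts in Rest and 4260.4, 4793 and 5176 in Restim, a 5.89-fold rise (log2 2.56 ± 0.056 SE, adjusted p = 3.49e-15). Its partner chain *Il12rb1* rose as well (log2 0.74), whereas *Stat4*, which carries the IL-12 signal, had a log2 fold change of -0.048 (adjusted p = 0.657). *Tbx21*, the Th1 lineage factor T-bet, went from 83.3, 98.9 and 54.6 to 175, 226 and 123 (log2 1.13 ± 0.19 SE, adjusted p = 2.05e-04), and *Runx3*, which acts with T-bet, rose by 0.69 on the log2 scale. *Hlx*, another partner of T-bet, had 1.05, 3.03 and 1.52 in Rest, which is at most 3 reads a library, and 9.06, 15.7 and 13.6 in Restim (adjusted p = 7.01e-04). The granzyme genes did not move alike: *Gzma* rose from 813, 784 and 766 to 2057, 2035 and 1995 (adjusted p = 5.60e-12) and *Gzmb* from 8813, 8693 and 9899 to 15548, 14984 and 15658 (adjusted p = 8.97e-09), while *Gzmc* fell from 28.5, 40.4 and 28.1 to 18.1, 14.6 and 13.6, a call lost without Rest replicate 2 or Restim replicate 3. *Fasl*, the death ligand, rose 3.60-fold (32.7, 43.4 and 60.7 against 168, 151 and 173), and the chemokines *Ccl5* and *Ccl4* rose by 1.47 and 1.16 on the log2 scale.

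*Ifng* itself was near the limit of detection, with 2.11, 3.03 and 10.6 normalized counts in Rest and 13.1, 19.1 and 18.2 in Restim (adjusted p = 0.0496). Its call was lost in 10 of the 15 refits that tested it, and the level in Restim was more than 200 times below that of *Il12rb2*. Of the Th1 genes that fell, *Il18rap* and *Il18r1*, the chains of the IL-18 receptor, had log2 fold changes of -1.67 and -0.61 (the second call was lost in 7 of 15 refits), *Cxcr3*, the homing receptor of Th1 cells, fell from 1033, 1109.8 and 1236 to 551, 492 and 553, and *Eomes*, a relative of T-bet, to a log2 fold change of -0.73, a call lost in 5 of 15 refits. Transcripts of both IL-12 receptor chains thus rose, while those of both IL-18 receptor chains fell. Receptor protein was not measured in these libraries.

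The Th2 and Th9 list had 3 of 9 tested genes (33.3%) called higher and none lower. The Th17 and Tfh list had 8 of 19 (42.1%) higher and none lower. Of all genes tested, 6.88% were higher and 6.63% lower. *Il4* rose from 8.43, 10.1 and 11.4 to 27.2, 30.3 and 23.6 (adjusted p = 3.47e-04) and *Il9*, the mast cell growth factor of Th9 cells, from 4.22, 3.03 and 1.52 to 38.3, 32.5 and 28.2 (adjusted p = 6.91e-07), both at low levels. *Gata3*, the Th2 lineage factor, had a log2 fold change of -0.28 and was not called. *Il24*, a cytokine of the IL-10 family, was far more abundant and rose from 579.7, 600.3 and 673 to 3071, 2719.8 and 2713 (log2 2.20 ± 0.074 SE, adjusted p = 1.07e-12). *Il21*, the cytokine of Tfh cells, rose from 219, 255 and 250.4 to 936, 893 and 1084 (log2 2.00 ± 0.074 SE, adjusted p = 2.91e-12), and its receptor *Il21r* by 0.54 on the log2 scale (a call lost without Rest replicate 1). Among the factors of Th17 cells, *Ahr*, *Stat3* and *Maf* rose by 1.30, 0.82 and 0.81 on the log2 scale, and the chemokine *Ccl20* rose 3.87-fold. *Csf2* reached only 13.1, 11.2 and 10.9 and lost its call without Rest replicate 3. *Il2*, the growth factor of activated T cells, stayed at 3.16, 2.02 and 1.52 in Rest and 4.03, 4.48 and 4.54 in Restim, below the level required for a test, and *Il17a* was at 0 reads in all 6 libraries.

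Among cytokines and TNF ligands as a whole, 10 of 26 tested genes were higher and 3 lower. *Tnfsf14* (LIGHT) and *Penk*, the precursor of enkephalins, rose by 1.23 and 1.02 on the log2 scale. *Ltb*, a subunit of membrane lymphotoxin, fell from 6919, 8157 and 4648 to 4055, 3908 and 2265, where the lower value of each group was in replicate 3, and *Cd40lg* and *Tnfsf9* fell by 0.58 and 0.59 on the log2 scale, the first a call lost without Rest replicate 3 and the second without Rest replicate 2 or Restim replicate 2. *Tnf* and *Lta* were not called (log2 -0.18 and 0.24). Of the 39 tested cytokine receptor, JAK-STAT and SOCS genes, 8 were higher and 4 lower. *Stat2*, which carries interferon signals, rose from 488, 506 and 476 to 1006, 1006 and 1029 normalized counts (adjusted p = 5.54e-09).

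Of 28 tested transcription factors that T cell receptor signals induce, 13 (46.4%) were called higher and 2 lower, with a median of 0.51. *Atf3*, a stress-induced partner of AP-1, rose from 174, 195 and 216 to 652, 710.5 and 749 (log2 1.85 ± 0.077 SE, adjusted p = 1.53e-11). All 3 NR4A nuclear receptors rose: *Nr4a2* from 17.9, 41.4 and 19.7 to 81.6, 84.0 and 77.2, *Nr4a3* from 22.1, 14.1 and 29.6 to 52.4, 54.9 and 44.5 and *Nr4a1* from 43.2, 35.3 and 41.7 to 66.5, 71.7 and 62.7, a call lost without Restim replicate 2. *Fosl2*, *Bhlhe40* and *Irf4*, factors of effector T cells, rose by 1.39, 1.13 and 0.82 on the log2 scale. Within the AP-1 family *Fos* and *Jund* fell instead, *Fos* from 51.6, 44.4 and 46.3 to 15.1, 19.1 and 18.2 and *Jund* by 0.70 on the log2 scale with 52.6% of its exon bases shared. Markers of early receptor signaling were not called: *Egr1* had 22.1, 32.3 and 19.0 and 26.2, 22.4 and 20.9, *Egr2* a log2 fold change of 0.49 (adjusted p = 0.0749), *Cd69* -0.018 (adjusted p = 0.897) and *Rcan1*, a target of calcineurin and NFAT, 0.17 (adjusted p = 0.609). *Myc* had a log2 fold change of 0.28 (adjusted p = 1.78e-04), below the fold threshold.

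Of the 30 tested genes of proximal receptor signaling, 1 was called higher and 4 lower (13.3% against 6.63% of all genes tested). The higher one was the NF-κB scaffold *Malt1* (log2 0.66). Among the lower ones *Trat1*, which stabilizes the receptor complex, fell from 813, 874 and 1115 to 272, 252 and 285 (3.46-fold, adjusted p = 1.39e-09), and *Pag1*, *Rasgrp1* and *Lat* fell by 0.93, 0.59 and 0.53 on the log2 scale. Without Rest replicate 1, 7 genes of that list were lower. Of 32 genes of calcium entry, calcineurin and NFAT, 3 were lower and none higher, a share of 9.38% against 6.63% of all genes, and 5 were lower without Rest replicate 1. By the adjusted p alone, 16 of the 30 proximal genes and 14 of the 32 calcium genes were lower, against 2038 of the 11105 genes tested. The 3 called genes were *Orai2*, a subunit of store-operated channels (591, 609 and 539 against 337, 378 and 318), *Ppp3cb*, a catalytic subunit of calcineurin (log2 -0.54, lost without Rest replicate 3), and *Kcna3*, a potassium channel that sustains calcium entry (log2 -1.10, lost in 4 of 15 refits). *Nfatc1* was not called (log2 -0.23, adjusted p = 0.021). Feedback genes of the receptor gave 4 of 32 higher, among them the MAP kinase phosphatases *Dusp16* and *Dusp4* (log2 1.29 and 1.13), the ubiquitin ligase *Cblb* (log2 0.75) and *Tnfaip3* (log2 0.61, lost without Rest replicate 1), and *Nfkbid* lower (log2 -0.70, lost in 4 of 15 refits).

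At the cell surface, 5 of 18 co-inhibitory genes (27.8%) were higher and 3 (16.7%) lower, against 6.88% and 6.63% of all genes tested. The PD-1 ligands rose together: *Cd274* (PD-L1) from 213, 204 and 219 to 501, 542 and 604 and *Pdcd1lg2* (PD-L2) from 82.2, 59.5 and 81.2 to 298, 253 and 263, with adjusted p = 5.34e-10 and 9.97e-09. Their receptor *Pdcd1* was not called (log2 0.27, adjusted p = 0.132). *Lag3*, which binds MHC class II, rose by 1.10 and *Cd200* by 0.91 on the log2 scale, while *Vsir* (VISTA), *Cd96* and *Lair1* fell by 0.91, 0.89 and 0.53 on that scale (the call of *Lair1* was lost with quantile normalization). Of 22 costimulatory genes, 5 were higher, among them *Tnfrsf9* (4-1BB, log2 1.12) and *Tnfrsf4* (OX40, log2 0.76), and 4 lower, led by *Slamf6*, a self-ligand of memory-like T cells, from 463, 458 and 678 to 176, 157 and 143. Homing genes gave 5 of 32 higher and 7 lower: the integrin chain *Itga6* fell from 613, 541 and 665 to 222, 177 and 244, *Itgb7* and the egress receptor *S1pr1* fell by 0.72 and 0.71 on the log2 scale, and the gut homing receptor *Gpr15* rose by 0.98 on the same scale.

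Among lists with 10 or more tested genes, the share of falls was largest for naive and quiescence genes, where 11 of 29 tested (37.9%) were lower and none higher (1 higher without Rest replicate 3), with a median of -0.34. *Id3*, an inhibitor of E proteins, went from 699.8, 561 and 618 to 124, 113 and 119.9 (5.26-fold lower, log2 -2.38 ± 0.10 SE, adjusted p = 2.58e-11). *Klf2*, which keeps T cells quiescent and drives *S1pr1*, went from 114, 71.6 and 86.5 to 20.1, 30.3 and 15.4 (adjusted p = 4.23e-06), and its relative *Klf3* from 135, 117 and 144 to 47.3, 38.1 and 31.8 (adjusted p = 1.28e-06). *Ms4a4b*, a membrane protein that modulates T cell signaling, fell from 1868, 1899.7 and 2549 to 422, 338 and 389.6 (adjusted p = 3.06e-11). In none of these 4 genes did a Restim library reach the lowest Rest library. The Tec kinase *Txk* fell by 1.88 on the log2 scale and the IL-7 receptor *Il7r* by 0.70. *Tcf7* and *Ccr7*, hallmarks of naive T cells, were not called (log2 -0.34 and 0.17), and *Bach2*, a repressor of effector genes, had a positive value (log2 0.47, adjusted p = 3.38e-05).

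**Figure D3:**
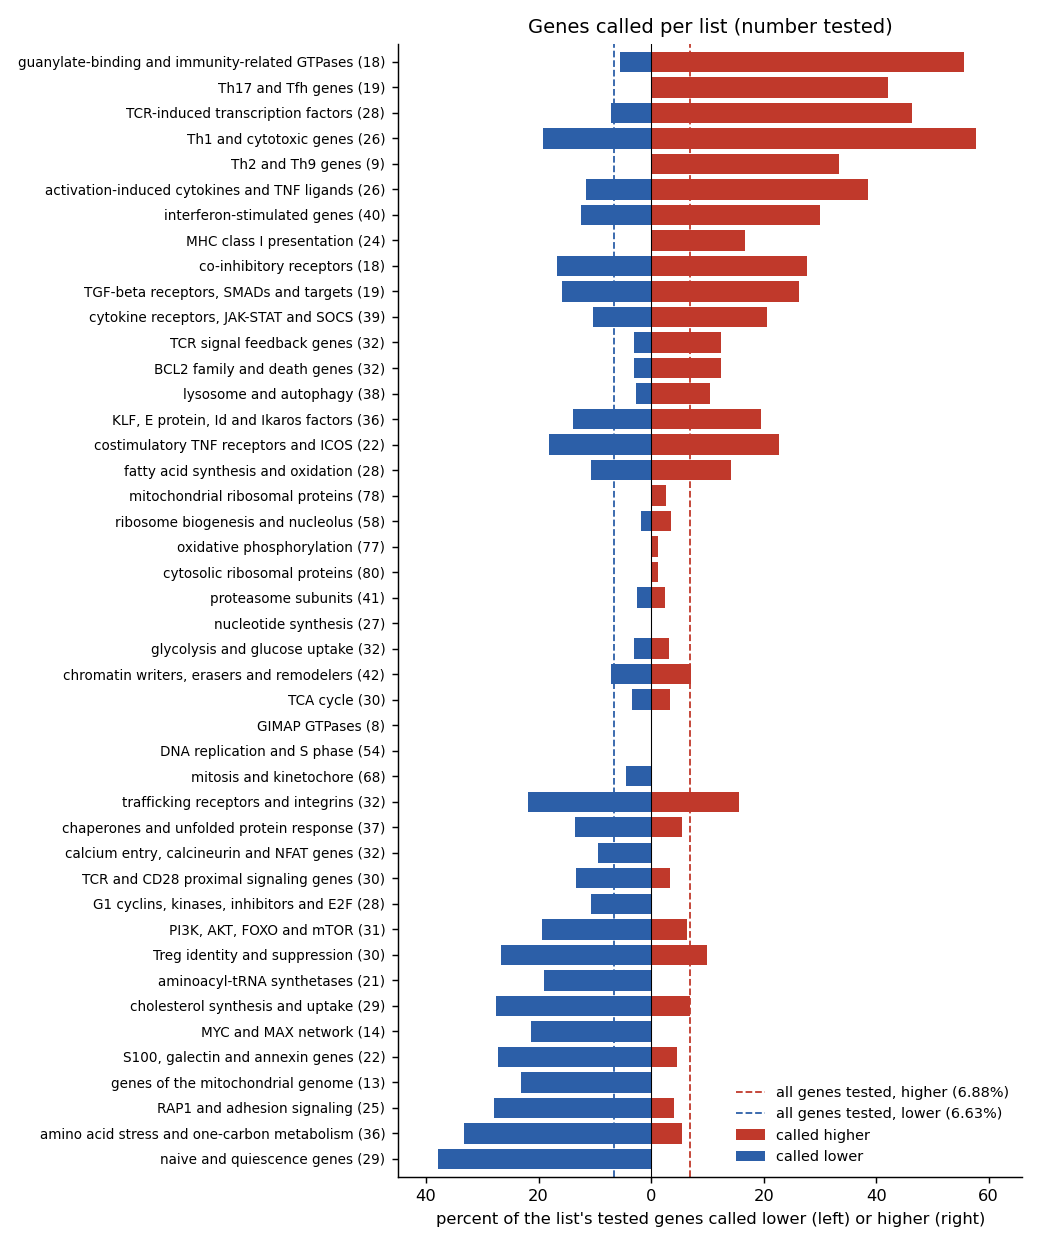
Percent of the tested genes of each list called lower (blue, left) or higher (red, right) in restimulated against resting iTregs, for the 44 lists with 8 or more tested genes other than the CD4+ T cell markers. Dashed lines mark the shares of all genes tested, 6.88% higher and 6.63% lower. Helper and interferon-linked lists stand at the top and naive and quiescence genes at the bottom.

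Interferon-linked genes moved in both directions, between families and also within them. Of all genes tested, 6.88% were higher and 6.63% lower. Of 18 tested guanylate-binding proteins (GBPs) and immunity-related GTPases (IRGs), which attack vacuoles of intracellular microbes, 10 (55.6%) were higher and 1 lower (*Gbp7*, log2 -0.50, lost in 6 of 16 refits), with a median of 0.60. *Gbp2* (chr3:142620602-142638008) rose from 4165, 4136 and 4560.1 to 15852, 15932 and 16958 normalized counts (log2 1.92 ± 0.046 SE, adjusted p = 4.91e-15), *Gbp10* from 29.5, 28.2 and 53.1 to 409.9, 357 and 394, and *Irf1*, the transcription factor listed with them, from 1051, 1112 and 1187 to 2085, 2274 and 2259.6. The GBP genes are close paralogs, and the counting may have split their reads. Outside that family, 12 of 40 interferon-stimulated genes (30.0%) were higher and 5 lower, with a median of 0.30: *Irf7* and *Isg15*, a ubiquitin-like antiviral modifier, rose from 8.43, 22.2 and 15.9 to 38.3, 35.9 and 30.9 and from 7.38, 17.2 and 9.11 to 18.1, 33.6 and 23.6. The call of *Isg15* was lost without Rest replicate 1 or Restim replicate 2. Against that trend, *Isg20*, an antiviral exonuclease, fell from 652, 692 and 745 to 144, 84.0 and 91.7 (log2 -2.74 ± 0.14 SE, adjusted p = 2.75e-10), *Ifit1bl1* from 23.2, 17.2 and 25.0 to 0, 3.36 and 0, which is 3 reads in all, and *Samd9l*, a restrictor of growth and of viruses, from 113, 136 and 162 to 43.3, 65.0 and 41.8.

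Of the p200 genes, whose products sense or bind DNA, 3 fell: *Ifi203* (chr1:173920407-173942672) from 148, 140.2 and 183 to 5.04, 17.9 and 11.8 (log2 -3.79 ± 0.28 SE, adjusted p = 2.15e-08), its neighbour *Mndal* from 129, 110.0 and 131 to 25.2, 22.4 and 29.1 and *Ifi209* from 33.7, 38.3 and 71.3 to 5.04, 11.2 and 18.2. Only 4 of the 17 listed p200 genes were tested, and the fourth, the DNA sensor *Aim2*, had a log2 fold change of 0.035. Genes of MHC class I presentation gave 4 of 24 higher, *H2-T23* (log2 0.86), *H2-T24* (log2 0.61), the peptide transporter *Tap1* (log2 0.63) and the immunoproteasome subunit *Psmb9* (log2 0.55, lost without Rest replicate 3), and none lower. No Restim library overlapped a Rest library for *Gbp2*, *Isg20*, *Ifi203* or *Mndal*.

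**Figure D4:**
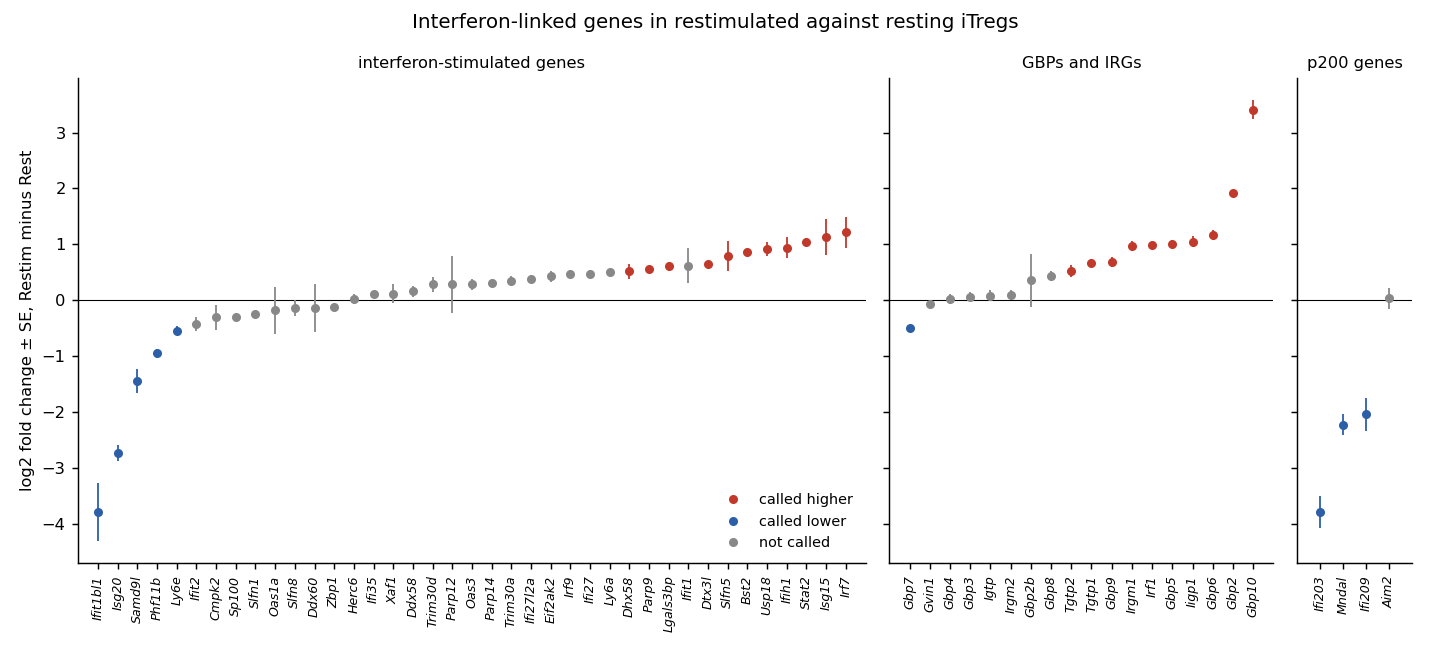
Log2 fold change ± SE (3 Rest and 3 Restim libraries) of the tested genes of the interferon-linked lists, except 1 that is not reported here, ordered within each list, in red where called higher, in blue where called lower and in grey otherwise. GBPs and IRGs lie mostly above 0 while *Ifi203*, *Mndal* and *Ifi209* lie at -3.79, -2.23 and -2.04.

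Promoters of interferon-linked genes are shown because members that rose and members that fell carry the same elements. The 250 bases before the annotated start (RefSeq, GRCm38.p6, 5′ to 3′ on the strand of the gene) were searched on both strands for the ISRE letters (GAAA, 2 bases of any kind, GAAA) and the GAS letters (TTCNNNGAA), and capitals mark the matches, which may overlap. *Isg15* (chr4:156200819-156201068, minus strand) and *Irf1* (chr11:53769764-53770013, plus strand, one of its annotated starts) rose, and *Ifit1bl1* (chr19:34601969-34602218, minus strand, one of its annotated starts) and *Isg20* (chr7:78913174-78913423, plus strand, one of its annotated starts) fell. No annotated exon overlaps these 4 windows.
Isg15: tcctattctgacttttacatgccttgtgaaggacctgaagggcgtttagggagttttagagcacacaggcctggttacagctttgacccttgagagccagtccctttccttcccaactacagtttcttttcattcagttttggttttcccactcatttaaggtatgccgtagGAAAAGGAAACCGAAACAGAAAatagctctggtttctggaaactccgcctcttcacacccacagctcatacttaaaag
Irf1: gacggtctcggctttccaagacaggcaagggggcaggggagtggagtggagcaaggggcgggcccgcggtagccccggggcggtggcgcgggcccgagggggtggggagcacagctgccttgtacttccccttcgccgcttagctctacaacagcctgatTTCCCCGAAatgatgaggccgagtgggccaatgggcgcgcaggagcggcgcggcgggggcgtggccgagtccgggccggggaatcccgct
Ifit1bl1: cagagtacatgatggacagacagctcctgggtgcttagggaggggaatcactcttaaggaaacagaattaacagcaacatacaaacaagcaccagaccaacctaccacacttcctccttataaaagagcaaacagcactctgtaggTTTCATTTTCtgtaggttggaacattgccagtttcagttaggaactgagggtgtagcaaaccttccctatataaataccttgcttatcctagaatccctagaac
Isg20: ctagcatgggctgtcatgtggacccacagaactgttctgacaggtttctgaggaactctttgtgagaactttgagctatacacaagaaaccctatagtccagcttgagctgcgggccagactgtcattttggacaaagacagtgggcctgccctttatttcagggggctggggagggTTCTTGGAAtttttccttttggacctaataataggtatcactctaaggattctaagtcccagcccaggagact

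*Isg15* held 3 overlapping ISRE matches from 78 to 66 bases before the start, *Ifit1bl1* held 1 at 104 bases, and *Irf1* and *Isg20* held 1 GAS match each at 90 and 73 bases. The window of the other annotated start of *Ifit1bl1* held 1 ISRE match at 23 bases, and those of the other starts of *Irf1* and *Isg20* held none of either kind. Among the 17 interferon-linked genes called higher that had a promoter in the table, 10 (58.8%) held an ISRE match, among the 8 called lower 5 (62.5%), and among the 40 not called 13 (32.5%), against 3.30% of the 8850 tested genes with a promoter. GAS matches were held by 5 of the 17 called higher, 2 of the 8 called lower and 7.31% of all. Matches of both kinds thus stood before genes that rose and before genes that fell. A gene was counted if any of its annotated starts had a match. The 17 genes called higher had 18 starts in the search and the 8 called lower had 13, so that the latter had more chances per gene. With so few genes, these shares cannot show whether the groups differ. Among genes with a promoter, the AP-1 letters TGANTCA stood before 10.5% of those called higher, 7.75% of those called lower and 5.11% of all tested. A match is a string of letters and no measure of binding.

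Metabolic genes were lowered in selected pathways. Of 36 tested genes of the amino acid stress response and one-carbon metabolism, 12 (33.3%) were lower and 2 higher, with a median of -0.27. *Slc7a5*, the transporter of large neutral amino acids, fell from 375, 434 and 366 to 154, 168 and 148 (log2 -1.31 ± 0.089 SE, adjusted p = 7.01e-09), *Trib3*, a pseudokinase induced by stress, from 838, 808 and 810.4 to 369.6, 420.2 and 359, and *Atf4*, the transcription factor of this response, from 1756, 1615 and 1799.8 to 1184, 1114 and 1108. The glutathione-degrading *Chac1* and the alanine transaminase *Gpt2* fell by 0.92 and 1.21 on the log2 scale. Of 21 aminoacyl-tRNA synthetases 4 were lower, led by *Cars* and *Nars* (each log2 -0.83). Of 37 chaperones and genes of the unfolded protein response, 5 (13.5%) were lower and 2 (5.41%) higher, against 6.63% and 6.88% of all genes tested. *Herpud1*, which acts in the clearance of misfolded proteins of the endoplasmic reticulum, fell from 1379.6, 1371 and 1413 to 701, 790.1 and 751. The fall of *Xbp1*, the transcription factor of that response, rested on the replicate block, since its libraries overlapped (2566, 4321 and 1500.1 against 1560.1, 1936 and 881) and its adjusted p was 3.97e-06 with and 0.108 without the block. *Sdf2l1* and *Dnajb11* depended on the block in the same way, with adjusted p = 0.119 and 0.0837 without it, where 1 gene of the list was lower.

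Of 29 genes of cholesterol synthesis and uptake, 8 (27.6%) were lower and 2 higher, with a median of -0.25. *Insig1*, which holds sterol sensors in the endoplasmic reticulum, fell from 864, 1141 and 555 to 501, 537 and 302 and the synthase *Hmgcs1* from 1823, 1804 and 1942 to 1171, 1311 and 1332 (a call lost without Restim replicate 1). *Insig1* varied within the groups, where its fall was seen in each replicate number. The cholesterol exporter *Abca1* rose (log2 0.68), and so did *Plin2*, which coats lipid droplets (log2 0.77), whereas the fatty acid synthase *Fasn* fell from 3811, 3814 and 3832 to 2236, 2295 and 2393. Calls were rare among glycolysis genes (1 higher and 1 lower of 32) and oxidative phosphorylation subunits (1 higher of 77). The same held for the TCA cycle (1 and 1 of 30) and nucleotide synthesis (none of 27 by limma). By the adjusted p alone, 8 glycolysis genes were higher and 5 lower. For the subunits these numbers were 14 and 7, for the TCA cycle 10 and 4 and for nucleotide synthesis 5 and 6. Of all genes tested, 34.3% passed the adjusted p alone in either direction.

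Genes of DNA replication had no call among 54 tested (3 passed the adjusted p alone on the higher and 18 on the lower side), and mitotic genes 3 lower of 68 (6 without Rest replicate 1, and 5 without Rest replicate 3, Restim replicate 1 or Restim replicate 3). The mitotic list was nonetheless shifted: 50 of its 68 genes passed the adjusted p alone with lower values, 3 of 68 had a positive fold change, and its median was -0.27 against -0.013 over all genes tested. *Cdc20* and *Cdc25b*, which drive mitotic exit and entry, fell from 3070.2, 2832 and 3029 to 1948, 1912 and 1826 and from 1591, 1864 and 1776 to 1002, 1083 and 1047. In genes of PI3K and FOXO signaling, 6 of 31 were lower and 2 higher: the pseudokinase *Trib2* fell by 1.26 on the log2 scale, and the adaptor *Irs2* and *Sesn3* rose by 0.94 and 0.90 on the same scale. Of 25 genes of RAP1 and integrin signaling, 7 (28.0%) were lower and 1 higher, with 4 lower without Rest replicate 3. *Rap1gap2*, which turns RAP1 off, went from 20.0, 23.2 and 13.7 to 2.01, 0 and 0, and *Rasgrp2*, which turns it on, from 106, 139 and 81.9 to 48.3, 51.5 and 45.4. The calcium-binding *S100a6* and the annexin *Anxa1* fell from 2105, 2109 and 1731 to 1102, 1001 and 1046 and from 43.2, 42.4 and 52.4 to 7.05, 6.72 and 9.99, among 6 of 22 lower in their list.

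The response of iTregs was set against that of conventional CD4+ T cells (Tconvs) to activation, in 3 resting and 3 activated libraries that share none with the iTreg comparison. The duration and dose of that activation are not given in the sources used here and may differ. Per the methods, Tconvs were sorted from spleens of Foxp3-GFP reporter mice aged 2 to 4 months, on a C57BL/6 background. iTregs were made from 6-week-old mice and had been through 4 days of stimulation with TGF-β and IL-2 and 1 day of rest. Cell type, age, earlier stimulation and culture therefore cannot be told apart. The difference between both responses was called for 5372 of 11335 genes (47.4%), with 22.9% of genes more positive and 24.5% more negative in iTregs (limma interaction). Of the 746 genes raised in iTregs that could be compared, 274 were more positive and 156 more negative in iTregs, and the other 316 were not called. Their median log2 response was 0.82 in iTregs and 0.44 in Tconvs. Of the 733 lowered genes, 282 were more negative and 130 more positive in iTregs and 321 were not called, with medians of -0.72 and -0.43. Because these genes were chosen by their response in iTregs, the larger medians there describe that choice.

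Of the 31 Treg genes compared, 18 responded more negatively in iTregs and 7 more positively. *Foxp3* went from 10.4 ± 0.835 to 33.8 ± 2.46 normalized counts (mean ± SD, n = 3) in Tconvs, a difference of -2.46 ± 0.15 SE on the log2 scale (adjusted p = 5.93e-09), and *Lrrc32* from 7.40 ± 3.39 to 90.9 ± 12.8 (log2 -4.45, adjusted p = 1.49e-08), so that both had higher means in activated than in resting Tconvs. Both genes started low in Tconvs, where little room for a fall was left, and iTregs had been sorted for the *Foxp3* reporter. How far the starting levels and the sort shaped these differences was not tested. The response of *Nrp1* was negative in iTregs and in Tconvs (log2 -1.15 and -1.55, adjusted p of the difference 0.0218). All 17 tested genes of the GBP and IRG list had a more negative response in iTregs than in Tconvs, including those that rose in iTregs: *Gbp2* went from 639.8 ± 34.8 to 52732 ± 2549.6, a response of 6.36 against 1.92 in iTregs, and the difference for *Tbx21* was -1.83 (adjusted p = 0.00127). Some activation genes started high in resting iTregs: *Il2ra* went from 39.7 ± 2.10 to 4351 ± 84.2 in Tconvs and had 11559.9 ± 1518 in resting iTregs, *Irf4* from 33.4 ± 4.48 to 4309 ± 173 against 3248 ± 400.5, and *Myc* from 380.0 ± 15.4 to 3472 ± 79.3 against 4934 ± 166. The mean of resting iTregs thus lay above that of activated Tconvs for *Il2ra* and *Myc* and below it for *Irf4*.

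For other genes both responses had opposite signs; those of Tconvs were not tested alone. *Gzma* had 15.3 ± 1.74 in resting and 6.85 ± 2.91 in activated Tconvs and rose in iTregs, a difference of 2.49 ± 0.31 SE (adjusted p = 7.98e-06), and *Fasl* had a difference of 3.53 (adjusted p = 3.78e-08). *Slc7a5* and *Fasn*, which fell in iTregs, had positive responses of 1.89 and 0.91 in Tconvs, with differences of -3.20 and -1.64 that were both called. *Id3* and *Isg20* fell in iTregs and had log2 responses of 0.0075 and 0.0012 in Tconvs, with differences of -2.39 and -2.74 (adjusted p = 8.29e-09 and 1.51e-06). For *Klf2* the responses were -2.02 and -2.05, a difference of 0.025 ± 0.29 SE, and for *Tgm2* they were 2.79 and 2.83 (log2 -0.032 ± 0.26 SE), while activated Tconvs held 34.7 ± 7.38 normalized counts of *Tgm2* against 3002 ± 238 in restimulated iTregs. These last differences were not called (adjusted p = 0.948 and 0.927).

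**Figure D5:**
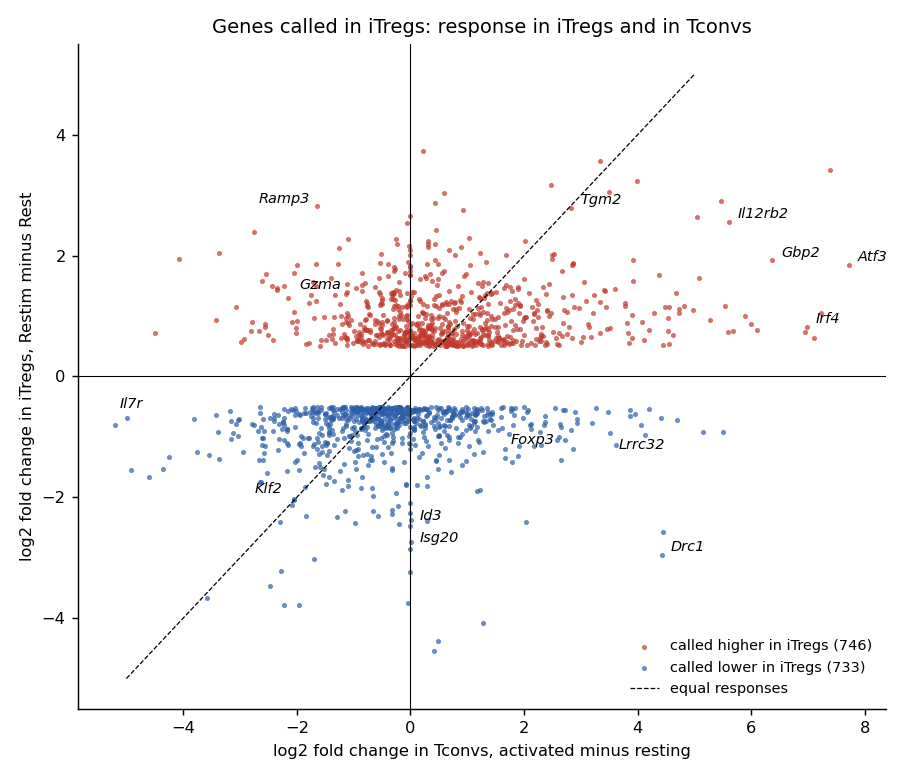
Log2 response of each gene called in iTregs and tested in both comparisons, in Tconvs (activated minus resting, horizontal) and in iTregs (Restim minus Rest, vertical), with 746 genes called higher in iTregs in red and 733 called lower in blue and a dashed line where both are equal. *Gzma* and *Ramp3* lie at the upper left, *Foxp3*, *Lrrc32* and *Drc1* at the lower right; the empty band around 0 follows from the fold threshold.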

How the data were processed

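Per the labels and the methods of the study, RNA was taken from sorted live cells with a modified SMART-seq2 protocol, which reads poly(A) RNA without its strand. The authors trimmed reads with Cutadapt 1.18, aligned them with STAR 2.5.3 to mm10, counted them with RSEM 1.3.0 on GENCODE GRCm38 and used DESeq2 1.26. The deposited table holds normalized counts (signal), namely reads of each of 21950 genes over a scaling factor common to the library. From them 100% of values in these libraries came back as whole reads within 0.01.

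Here limma 3.58.1 (R 4.3.3) was fitted to log2(normalized count + 1) of all 12 iTreg libraries, 3 each of Rest, Restim, ORAI inhibitor and cyclosporin A. The replicate number was the block, and genes needed 10 or more normalized counts in 3 or more libraries. Fold changes on this scale understate those of low genes. Genes were called at an adjusted p below 0.05 and a log2 fold change beyond 0.5. The difference from Tconvs was an interaction term over 12 libraries without block. In simulated data the first fit recovered 95 of 100 genes changed by a log2 of 1 with 10 false calls. The interaction fit recovered 82 of 100 with 12 false calls. Only genes well above the limit of detection at rest were changed, and no replicate effect was simulated. Recovery of lower genes and the use of the block were thus not tested. Alternatives included other pseudocounts, filters and scalings, edgeR 4.0.16 and DESeq2 1.42.0 on the recovered reads. Exon overlap and positions are from GENCODE vM21, which matched 99.2% of genes tested, and promoters from RefSeq.

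Named genes were the 15 largest rises and falls among called genes with non-overlapping libraries and a mean of at least 50 normalized counts in the higher group, up to 4 called genes per list and direction, 42 further genes whatever their change, and the 5 largest differences from Tconvs per direction. Those differences were ranked among called genes with at least 50 normalized counts in the highest group mean and with Rest and Restim libraries that did not overlap. Other list members were given where a sentence on the list needed their value. The samples, the lists and this rule were chosen with earlier results of these data known. Some listed genes, such as *Id3*, *Ms4a4b*, *Il12rb2* and *Il21*, had been named by the study for their change in these cells. Shares of lists are therefore no independent support. Percentages of called genes are of those tested. A few genes are not reported here.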

Additional observations from a re-analysis of the deposited data

Results flagged for a closer look

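The response of iTregs to restimulation differed from that of Tconvs to activation for 5372 of 11335 genes by the limma interaction term. The genes below were ranked among those with 50 or more normalized counts in the highest group mean and with Rest and Restim libraries that did not overlap. Genes that hardly moved in iTregs were thus mostly left out. Within that set the difference was most positive for *Gm49391* (6.01 on the log2 scale). Its means were 84.0 (Rest) and 320.2 (Restim), against 20.8 and 0.287 in Tconvs before and after activation. *Pcsk1*, a prohormone convertase, followed with 5.41 (9.10 and 37.9 against 258 and 24.2). *Klrd1*, the CD94 receptor of NK cells, had 5.22 (28.6 and 49.4 against 396 and 16.9). *Ctla2b* had 5.15 (40.8 and 211 against 12.2 and 2.10), and *Ramp3* had 4.47 (6.68 and 52.3 against 307 and 98.1).

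The most negative difference within the same set was that of *Drc1*, which encodes a part of the motile cilium, with -7.37. Its means were 161 (Rest) and 20.4 (Restim), against 6.77 and 155 in Tconvs before and after activation. *BC035044* had -7.02 (84.1 and 13.5 against 3.74 and 103). *Il2ra* had -7.00 (11560 and 9599 against 39.7 and 4351). *Pros1*, an anticoagulant cofactor, had -6.47 (1721 and 2680 against 44.6 and 6247), and *Slc6a9*, a glycine transporter, had -6.41 (56.9 and 29.5 against 1.83 and 117). *Drc1* and *BC035044* fell in restimulated iTregs to levels below those of activated Tconvs, while *Il2ra* was higher in both iTreg groups than in either Tconv group. Groups of 3 libraries are too small for the test of single outlying libraries.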

How the results depend on the processing

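The count of 1500 genes stayed within 1.5 times of itself with pseudocounts of 0.1 and 5 (1495 and 1456), without a filter (1596), with recomputed size factors (1487), with quantile normalization (1465), with the 6 libraries alone (1426) and with edgeR (1490) or DESeq2 (1347) on the recovered reads, a pair of tools added after the data were seen. With at least 100 normalized counts in 3 libraries it was 911 (433 higher and 478 lower), where fewer genes were tested, with the adjusted p alone 3805 (1767 and 2038), and with a log2 fold change above 1 it was 489 (299 and 190). Leaving out 1 library gave 1362 to 1576 genes, with 678 to 762 higher and 628 to 814 lower, and here the thinned group was assumed to vary like the others. The difference from Tconvs was called for 2869 genes (1327 more positive and 1542 more negative) above a log2 of 1, and for 5146 to 5418 when 1 library was left out.

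Of 251 called genes named by the rule or in the text, 190 kept their call in every refit that tested them, 145 of them in all 16 (the other 45 were tested in 12 to 15). The call of *Cd79b* was lost in 11 of 15, of *Ifng* in 10 of 15, of *Gls2* in 9 of 15 and of *Elovl6* and *mt-Nd3* in 8 of 16. Uncalled genes near 0 changed sign when 1 library was left out: *Ctla4* ranged from -0.049 (without Restim replicate 1, with negative values also without Rest replicate 1 or 2) to 0.17, *Egr1* from -0.15 to 0.15 (positive without Rest replicate 2 or Restim replicate 2), *Cd69* from -0.13 to 0.12 (positive without Rest replicate 3, Restim replicate 2 or Restim replicate 3) and *Rcan1* from -0.023 (without Rest replicate 2, negative also without Restim replicate 2) to 0.33. *Aim2* ranged from -0.015 to 0.082 (negative without Rest replicate 2 or Restim replicate 1) and *Rara* from -0.22 to 0.076 (positive without the same libraries). The cause was not tested. List counts of 5 or fewer often moved by 1 or 2 genes.

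The replicate number was used as a block because the samples carry it, although nothing says that equal numbers share a mouse or culture. Deviations of Rest and Restim libraries with the same number correlated at 0.045, 0.19 and 0.24. The mean of -0.080 for different numbers adds no support of its own, since deviations from a group mean cancel out within the group. Between Rest and Restim each library correlated best with its own number, a hint from the data only. Over all iTreg groups, same-number pairs ran from -0.039 to 0.30 and different-number pairs from -0.26 to 0.13, so that both ranges overlapped. Without the replicate block 1425 genes were called (744 higher and 681 lower). With a block in the comparison with Tconvs, 5487 were called (2635 and 2852).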

Other observations

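Some further groups of genes, picked after their values were seen, are given here as values only. *C3*, the central component of complement, had 6.32, 6.05 and 2.28 normalized counts in Rest and 22.2, 25.8 and 22.7 in Restim (log2 2.15, limma adjusted p = 0.00373), and the protease genes *C1ra* and *C1s1* had log2 fold changes of 1.20 (call lost without Restim replicate 2) and 0.96 (call lost in 4 of 15 refits). Genes linked to vitamin A, a known aid of iTreg induction, were divided. *Stra6*, the receptor that takes up retinol, rose from 21.1, 35.3 and 34.1 to 125, 128 and 113 and *Crabp2* and *Tgm2* rose as described, while *Rdh10*, which oxidizes retinol, fell from 241, 250.2 and 275 to 129, 133 and 116 and the receptor *Rara* had a log2 fold change of -0.083 (adjusted p = 0.627).

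Genes of MHC class II, which resting mouse T cells express little, were low and partly higher: *Cd74*, the invariant chain, went from 198, 319.8 and 261 to 478, 505 and 474, *H2-Aa* from 21.1, 11.1 and 21.2 to 46.3, 29.1 and 32.7 (call lost without Rest replicate 2 or Restim replicate 1) and *H2-Eb1* from 17.9, 13.1 and 24.3 to 47.3, 35.9 and 44.5, while *H2-Ab1* had a log2 fold change of 0.44 (adjusted p = 6.59e-05). *Ebf1*, a B cell factor, moved the same way, whereas the B cell marker *Cd79b* went from 36.9, 32.3 and 26.6 to 25.2, 14.6 and 18.2. *Ms4a1* and *Pax5* had 0 reads, and the part of other cells in these values was not tested. Metal-binding *Mt1*, *Mt2* and *Mt3* rose by 0.71, 1.42 and 1.15 (call lost without Rest replicate 3) on the log2 scale, with 73.5% of the exon bases of *Mt2* shared with another gene. *Timp1*, a protease inhibitor, rose from 24.2, 34.3 and 28.1 to 113, 103 and 107, *Inhba*, a subunit of activin, from 42.2, 41.4 and 39.5 to 159, 150.2 and 147, *F3*, the tissue factor of clotting, from 5.27, 4.04 and 3.79 to 17.1, 23.5 and 9.99 and *Pdpn*, podoplanin, from 23.2, 15.1 and 24.3 to 91.7, 71.7 and 93.5. *Ramp1* fell by 1.54 on the log2 scale while its relative *Ramp3* rose by 2.82, and *Calcrl*, the receptor both serve, had a log2 fold change of 0.15 (adjusted p = 0.369).

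Genes next to each other on a chromosome sometimes moved together. Of 9821 neighbouring pairs of tested genes, 268 had both members called, 183 of them in the same direction and 85 in opposite directions. Of all genes tested, 13.5% were called, and whether pairs were called together more often than this share implies was not tested. Neighbours were the next tested genes at any distance, such as *Ebag9* and *Trps1* with 6013236 bases between them. *Il10* and *Il24* on chromosome 1 both rose, as did *Cd274* and *Pdcd1lg2* on chromosome 19 and the chemokine genes *Ccl5* and *Ccl9* on chromosome 11, while *Ifi209* and *Mndal* on chromosome 1 and *Nipal1* and *Txk* on chromosome 5 both fell. *Csf2* rose beside *Acsl6*, which fell, the first a call lost without Rest replicate 3 and the second without Rest or Restim replicate 3.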
